A study of Arabidopsis thaliana with 20 samples.

Results

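Kinetin at 200 ng/ml lowered 51 probe sets at least 2-fold in both replicates of the wild type and of the mutants ckh1-1 and ckh2-1, among 22746 probe sets other than the array's 64 controls. A probe set is the group of probes that reads 1 transcript. The rule asked for a log2 difference of -1 or below, on log2(signal + 30), between the array with 200 ng/ml kinetin and the array of the same replicate number without kinetin, in all 6 such pairs. By the same rule turned round, 130 probe sets were at least doubled. The 51 were therefore chosen on the arrays without kinetin and with 200 ng/ml. What follows gives those values as a description, and tests only differences between groups that took no part in the choice, those with 25 ng/ml kinetin and that with trichostatin A. The spread in these tests was estimated over all 20 arrays, those of the rule included, so the counts are also given from a fit of the 8 arrays with 25 ng/ml or trichostatin A alone.

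Expression was measured on 20 Affymetrix ATH1 arrays of Arabidopsis thaliana hypocotyl segments, 2 arrays in each of 10 groups. All segments came from seedlings aged 10 days grown in dim light, and all were cultured for 3 days in continuous light on callus induction medium containing 100 ng/ml of the synthetic auxin 2,4-D. Kinetin, a cytokinin, was given at 0, 25 or 200 ng/ml to ckh1-1, to ckh2-1 and to the wild type, Ler, and a further wild type group received trichostatin A (TSA) at 100 ng/ml and no kinetin. The series title poses the question of how CKH1 and CKH2 affect cytokinin responses in tissue culture. Each genotype is 1 line and each mutant 1 allele, and TSA was given to the wild type alone. A segment holds several tissues, so fewer cells of a type and less RNA per cell cannot be told apart.

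Cytokinins are perceived by histidine kinase receptors and act through a phosphorelay that ends in response regulators in the nucleus. With auxin they set whether cultured plant tissue grows as callus or forms roots or shoots, and on a medium with auxin alone hypocotyl segments tend towards root formation, which cytokinin counters. CKH1 encodes a TAF12-type subunit of the general transcription factor TFIID, and CKH2 is the chromatin remodelling factor PICKLE. Both mutants were named for a heightened response of cultured tissue to cytokinin. TSA inhibits histone deacetylases.

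Signals are MAS5 intensities in arbitrary units, rescaled so that all arrays have the same trimmed mean of 273.9, and pairs of values below are replicates 1 and 2. Median signal per array ran from 92.6 to 136.9 before rescaling, and the correlation across probe sets between both arrays of a group was 0.958 to 0.987. Separate cultures are not named in the labels as the source of replicates, so a p-value measures the spread between arrays alone, which may be technical, and 2 arrays a group limit the precision. Differences are of log2(signal + 30), which understates the change of dim probe sets. Of the markers for other tissues, none of 20 loci for suberin and the Casparian strip of the endodermis, 4 for xylem and 2 for epidermis could be matched by name to a probe set. The root hair marker EXPA7, 1 of 4 such loci, lay at 16.4 to 22.9 in every group and was too dim to be tested.

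The array's name table gives exactly 1 gene for 25 of the 51 probe sets and none for 26, which is 49% with a name against 54.9% of the 15436 probe sets tested. Of the 25 named genes, 8 carry a symbol and 17 only a locus tag. Protein families of the latter are given as background. Genes of the cell wall and of secreted proteins number 8. They are the GDSL-type lipase genes AT1G29670, AT1G75880 and AT1G75900, the class III peroxidase genes AT4G08780 and Prx37, the xyloglucan endotransglucosylase gene XTH19, AT2G16630 of a proline-rich wall protein family, and AT1G73620 of the thaumatin family. Regulators number 4, namely LBD16, a factor of lateral root initiation that responds to auxin, MYBC1, a MYB-type factor, UPB1 (UPBEAT1), a root bHLH factor that acts on peroxidase genes, and IQD18, a calmodulin-binding IQ-domain protein. Receptor-type proteins are encoded by AT3G24240, a leucine-rich repeat receptor-like kinase, and AT5G45210, of the TIR-NBS-LRR class of disease resistance proteins. The enzymes are BAT1 (AT4G31910), a brassinosteroid-related acyltransferase that shares its symbol with an amino acid transporter at another locus, AT1G69526 of the methyltransferases, AT1G73340 of the cytochromes P450, AT2G18360 of the alpha/beta hydrolases and AT5G37540 of the aspartyl proteases. AT3G05150 belongs to the sugar transporters. The remaining 5 are ZW9, a TRAF-like protein, AT4G21620, a glycine-rich protein, and AT4G16447, AT5G67390 and AT1G29270. This grouping was made with the values known and carries no test.

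Neighbouring loci form 2 pairs among the named genes. AT4G08770 (Prx37) and AT4G08780 are adjacent, with 0 protein-coding genes between them, and AT1G75880 and AT1G75900 have 1 gene between them. Each pair holds close relatives, and cross-hybridisation between their probe sets was not tested. The members of a pair did not behave alike throughout, as the values below show.

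The levels of the 51 probe sets without kinetin are a description, since a 2-fold fall needs a starting signal above the bottom of the scale. In the wild type their median signal before any kinetin was 456, against 245 over all probe sets tested, with 37 of the 51 above the latter. At 25 and 200 ng/ml the members' median fell to 326 and 127 in the wild type. All probe sets tested had a median of 239 at 25 ng/ml there, with 29 of the 51 above it. Shares over all probe sets given below are not matched for signal. In ckh1 the members' median ran from 466 without kinetin through 132 to 25.8, and in ckh2 from 278 through 169 to 40.2. With TSA it was 119. All 51 passed the filter on low signal through the group without kinetin, where the rule needed them to be high. At 200 ng/ml in ckh1 10 of them were still above that filter's level, against 36 in the wild type and 17 in ckh2.

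**Figure D1:**
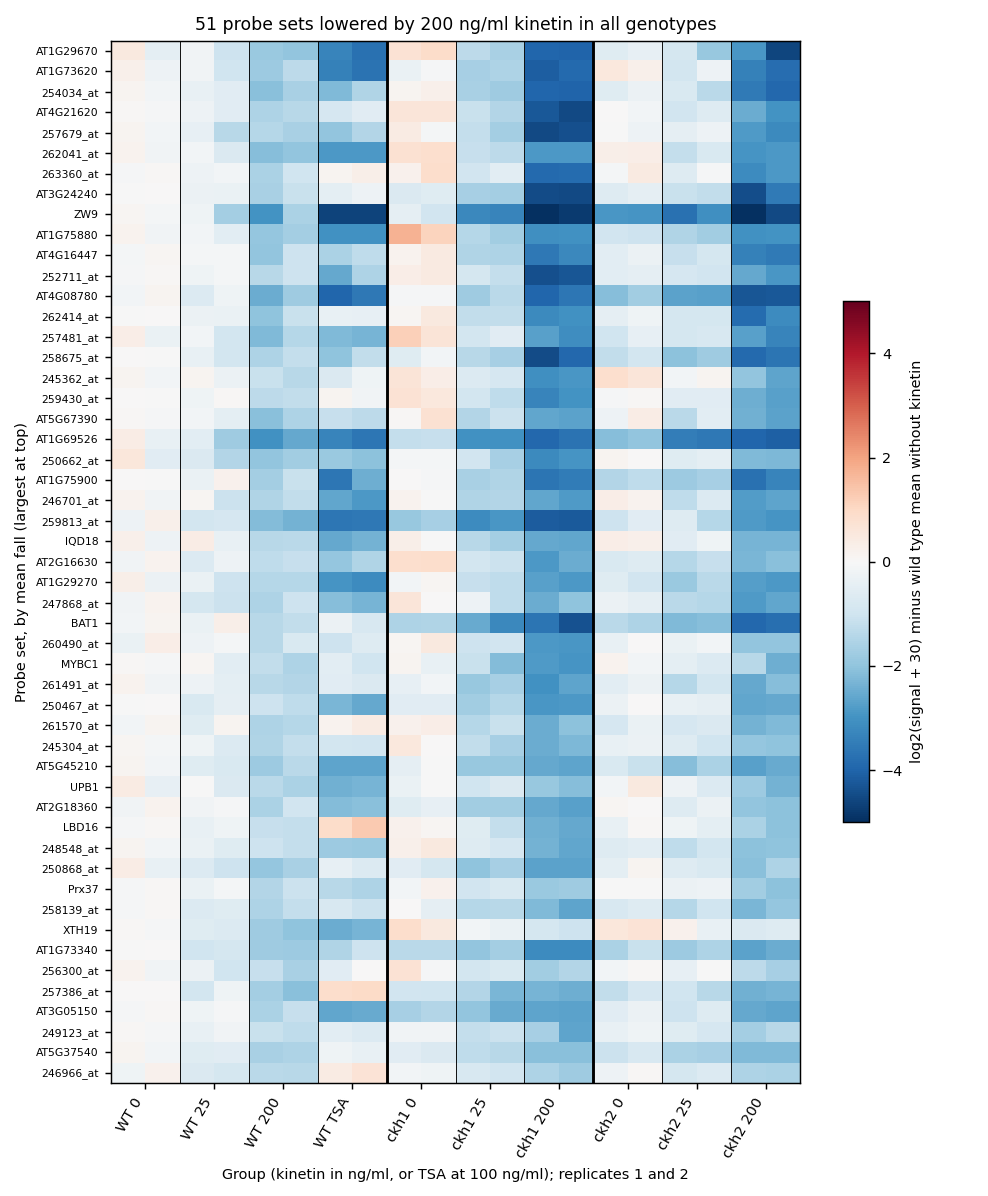
Each row is 1 of the 51 probe sets and each column 1 of the 20 arrays, with colour giving log2(signal + 30) minus the mean of the wild type arrays without kinetin (blue lower, red higher). All rows are blue at 200 ng/ml, by choice in the wild type columns and as measured in those of the mutants, whose own arrays without kinetin the rule used; at 25 ng/ml the ckh1 columns are darker than the wild type columns, and with TSA most rows are dark while LBD16, 257386_at and 246966_at are red.

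The fall at 200 ng/ml, which chose the members, differed in size among genotypes. Its median over the 51 was -1.42 in the wild type, with a range from -2.80 to -1.07, -2.78 in ckh1, from -4.99 to -1.08, and -2.17 in ckh2, from -4.0 to -1.22. On the rescaled signals 51, 50 and 51 members were at least 2-fold lower in both replicates of the wild type, ckh1 and ckh2, against 0.875%, 3.8% and 3.4% of all probe sets, counts that the rule itself fixed. The largest fall was in ckh1 for 39 members, in ckh2 for 7 and in the wild type for 5. The smallest of the 6 values that chose a member was a wild type value for most, in replicate 2 for 34 and in replicate 1 for 8. At the threshold, 248548_at, 263360_at and 246701_at entered with their weakest values at -1.054, -1.048 and -1.028, and 255732_at, AT5G02230 and AT3G47800 missed it at -0.988, -0.987 and -0.984.

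AT1G29670 had the largest mean fall. This lipase gene read 1244 and 614 with no kinetin in the wild type, 772 and 407 at 25 ng/ml and 217 and 199 at 200 ng/ml. In ckh1 it was 1454 and 1687, 336 and 261, and 27.5 and 25.9 at the same levels, and in ckh2 568 and 653, 466 and 212, and 89.2 and 7.74. The arrays at 25 ng/ml lay below those without kinetin in both mutants, while in the wild type they overlapped, since its replicate 1 was the higher in either condition. With TSA the lipase transcript stood at 60.8 and 37.9, below both wild type arrays at 200 ng/ml.

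AT1G73620, the thaumatin-family gene, read 964 and 674 with no kinetin in the wild type, 714 and 393 at 25 ng/ml, 210 and 304 at 200 ng/ml and 50.4 and 34 with TSA. In ckh1 it read 629 and 780, then 232 and 255, then 18.1 and 27.3. In ckh2 it read 1167 and 979, then 411 and 678, then 49.4 and 29.7. At 25 ng/ml both ckh1 arrays lay below all arrays of the wild type and of ckh2.

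AT4G21620, the glycine-rich protein gene, is among the brightest members. Its wild type signal was 2225 and 2077 with no kinetin, 1797 and 1432 at 25 ng/ml and 722 and 798 at 200 ng/ml, and 1203 and 1440 with TSA. In ckh1 it started higher, at 3297 and 3322, and went to 971 and 768 and then to 85 and 66.5. In ckh2 it was 2187 and 1940, then 1097 and 1359, then 365 and 241. No 2 groups along the kinetin series overlapped within any genotype.

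Among the members without a gene name, 254034_at read 523 and 431, 361 and 312, and 89.6 and 135 along the kinetin series in the wild type, 521 and 564, 134 and 118, and 2.07 and 1.3 in ckh1, and 301 and 377, 269 and 166, and 13 and 3.42 in ckh2. It stood at 78.8 and 146 with TSA. Its series did not overlap between levels in any genotype. Probe set 257679_at read 1989 and 1596, 1349 and 656, and 648 and 556 in the wild type, 2347 and 1645, 757 and 526, and 50.1 and 55.6 in ckh1, and 1750 and 1474, 1297 and 1491, and 222 and 167 in ckh2, with 427 and 626 under TSA. In ckh2 its arrays at 25 ng/ml overlapped those without kinetin, which they did not in the other genotypes. Probe set 262041_at read 241 and 188, 191 and 118, and 25.8 and 32.1 in the wild type, 385 and 405, 80.7 and 68, and 2.82 and 3.07 in ckh1, and 264 and 280, 75.1 and 114, and 1.76 and 3.13 in ckh2. With TSA it was at 2.87 and 3.44, about as low as at 200 ng/ml in the mutants, and its wild type arrays at 25 ng/ml overlapped those without kinetin.

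With 25 ng/ml kinetin the members were in the median lower than without kinetin in every genotype, and the step was largest in ckh1. The median difference from no kinetin was -0.47 in the wild type (-0.42 and -0.44 in replicates 1 and 2), -1.34 in ckh1 (-1.33 and -1.43) and -0.60 in ckh2 (-0.55 and -0.54), against -0.01, -0.03 and 0.00 over all probe sets tested. In ckh1 31 of the 51 were at least 2-fold lower in both replicates, against 0.972% of all probe sets. In the wild type none was, against 0.0518%, and in ckh2 2 were, against 0.0324%. These 2 are AT1G69526 and 262041_at. Arrays at 25 ng/ml lay wholly below those without kinetin for 34 members in the wild type (13.1% of all probe sets), 51 in ckh1 (26.5%) and 41 in ckh2 (20.3%). The arrays without kinetin also chose the members for being high there, so these differences carry no test.

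Seen as a share of the fall at 200 ng/ml, the fall at 25 ng/ml had a median of 28.3% in the wild type (23% and 31% in replicates 1 and 2), 47.6% in ckh1 (44.8% and 49.1%) and 27.1% in ckh2 (25.3% and 26.4%). At least 50% of the fall was present at 25 ng/ml for 22 members in ckh1, 6 in the wild type and 4 in ckh2. Dim signals limit the fall at 200 ng/ml, which can raise the share. At 200 ng/ml 10 members were above the filter's level in ckh1, against 36 in the wild type and 17 in ckh2. The size of this effect on the shares was not tested. The arrays without kinetin and at 200 ng/ml also chose the members, so the shares are a description. The fall at 25 ng/ml was largest in ckh1 for 49 members and in the wild type for the other 2. The largest in ckh1 were those of the lipase gene AT1G75880, at -3.04 (-3.19 and -2.88), ZW9, at -2.56 (-2.77 and -2.34), and AT1G29670, at -2.29 (-2.02 and -2.56). In the wild type the same genes stood at -0.34, -0.95 and -0.61. AT1G69526 fell most in the wild type and in ckh2, with -1.14 (-0.88 and -1.39) and -1.48 (-1.36 and -1.59). The smallest falls in the wild type were those of BAT1 and IQD18, both at -0.02 in the mean, with 1 replicate above 0 and 1 below.

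**Figure D2:**
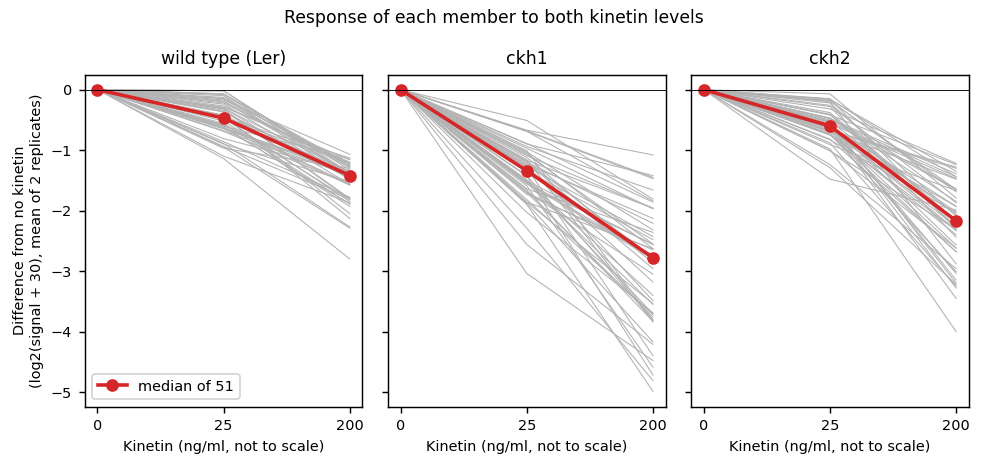
Grey lines give each of the 51 probe sets as the difference of log2(signal + 30) from no kinetin (mean of 2 replicates) at 25 and 200 ng/ml in each genotype, and the red line their median. At 25 ng/ml the median is at -0.47 in the wild type, -1.34 in ckh1 and -0.60 in ckh2.

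Levels in ckh1 at 25 ng/ml were also set beside those of the wild type at 200 ng/ml. The median difference, ckh1 minus wild type, was 0.15, with 21 members lower in ckh1 in the mean, 9 with both ckh1 arrays below both wild type arrays (18.2% of all probe sets) and 16 with both above (24.8%). For ckh2 at 25 ng/ml the median difference from the wild type at 200 ng/ml was 0.67, with 5 members wholly below (21.1%) and 31 wholly above (25.9%). The wild type arrays at 200 ng/ml chose the members for being low there, so this too is a description.

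Compared directly at 25 ng/ml, where no array took part in the choice, ckh1 was lower than the wild type for 33 of the 51 members by limma's test with Benjamini-Hochberg adjustment over all 15436 probe sets, a share to be read against 4.85% of all probe sets called lower. None was called higher by limma, against 2.78% of all, and 1, XTH19, was higher at an unadjusted p under 0.05. The median log2 difference over the 51 was -0.94 (-0.98 in replicate 1 and -0.87 in replicate 2), with 49 below 0, against a median of 0.01 over all probe sets. Of the 33 calls, 15 held under all 9 alternatives of processing, and 30, with these 15 among them, in the fit of the 8 arrays alone. The count was 19 on the signals as deposited, where 264 of all probe sets were called lower, against 748 after rescaling. It fell in each of the 4 fits that leave out 1 array, as did the count over all probe sets.

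All 6 enzyme and transporter genes were called lower in ckh1, and both receptor-type genes, 5 of the 8 wall and secreted protein genes, 2 of the 4 regulators and 3 of the 5 others. Of the 26 unnamed probe sets 15 were. The 6 already stood below the wild type without kinetin, by a median of -1.25 (from -1.57 to -0.50), against -1.75 at 25 ng/ml. In the other named groups the median without kinetin ran from -0.46 (receptor-type) to 0.36 (wall and secreted). For AT1G73340 the mean difference was -1.34 without kinetin and -0.90 at 25 ng/ml. BAT1 showed the largest difference. Its signal at 25 ng/ml was 617 and 966 in the wild type, against 114 and 57.7 in ckh1, while ckh2 had 148 and 154. The ckh1 arrays lay wholly below those of the other genotypes, and the log2 difference from the wild type was -2.84 ± 0.26 (SE, 2 arrays against 2, limma adjusted p = 1.85e-05). Both mutants also stood low without kinetin, at 247 and 261 in ckh1 and 291 and 252 in ckh2 against 712 and 865. At 200 ng/ml the wild type had 278 and 314, ckh1 34.4 and 10.2 and ckh2 24.3 and 29.5. With TSA the acyltransferase gene read 640 and 434 in the wild type, wholly below the group without kinetin and overlapping the group at 25 ng/ml.

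The difference was nearly as large for ZW9. Its signal was 2062 and 1807, 1651 and 580, and 215 and 626 along the kinetin series in the wild type, 1393 and 975, 179 and 168, and 28.9 and 41.3 in ckh1, and 231 and 224, 119 and 201, and 28.9 and 56.6 in ckh2. The wild type arrays at 25 ng/ml were far apart, yet both lay above all mutant arrays at 25 ng/ml. The difference at 25 ng/ml was -2.32 ± 0.42 in ckh1 (adjusted p = 0.00272) and -2.45 ± 0.42 in ckh2 (adjusted p = 0.00221). In ckh2 ZW9 was already low without kinetin, whereas in ckh1 its arrays without kinetin lay far above those at 25 ng/ml.

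AT3G05150, the sugar transporter gene, was dim in ckh1 at every level. It read 166 and 185, 145 and 166, and 37.8 and 63.1 in the wild type, 34.6 and 43.7, 22.9 and 5.51, and 2.83 and 2.34 in ckh1, and 109 and 136, 70.2 and 101, and 4.68 and 2.64 in ckh2. The ckh1 arrays at 25 ng/ml lay below both other genotypes, by -2.10 ± 0.22 against the wild type (adjusted p = 3.65e-05). The unnamed 259813_at followed the same order, with 616 and 873, 375 and 392, and 140 and 117 in the wild type, 178 and 213, 56.9 and 70.3, and 12.3 and 11.4 in ckh1, and 338 and 491, 464 and 255, and 76.5 and 68.9 in ckh2. Its difference in ckh1 was -2.15 ± 0.23 (adjusted p = 5.04e-05), and in ckh2 its arrays overlapped those of the wild type. AT1G69526, the methyltransferase gene, read 839 and 493, 442 and 169, and 51.8 and 84.3 in the wild type, 265 and 276, 53.3 and 52.8, and 14.7 and 22.5 in ckh1, and 126 and 141, 30.8 and 26.8, and 12.6 and 9.79 in ckh2. It was lower than the wild type at 25 ng/ml in ckh1, by -1.88 ± 0.31 (adjusted p = 0.00121), and in ckh2, by -2.38 ± 0.31 (adjusted p = 0.000228).

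Among the other named genes called lower in ckh1, differences ran from -1.61 ± 0.18 for the hydrolase gene AT2G18360 (adjusted p = 7.64e-05) to -0.63 ± 0.15 for Prx37 (adjusted p = 0.0182). The calls for AT2G18360, IQD18 (-1.54), AT1G75900 (-1.5), AT4G16447 (-1.42), AT3G24240 (-1.37), AT1G75880 (-1.26) and AT5G45210 (-1.20) held under all 9 alternatives. Those for MYBC1 (-1.44), AT4G08780 (-1.12), AT1G73620 (-1.04), AT1G73340 (-0.90), AT4G21620 (-0.87), AT5G37540 (-0.73) and Prx37 did not. MYBC1 lost its call in 3 of 9 alternatives, with adjusted p from 0.00063 to 0.22, the highest without replicate 2 of ckh1. AT4G08780 lost it in 2, with adjusted p up to 0.102 without replicate 1 of ckh1, and AT1G73620 in 6, with adjusted p up to 0.311 without replicate 1 of the wild type. AT4G21620 lost it in 3, AT5G37540 in 2 and Prx37 in 4, with adjusted p up to 0.297, 0.209 and 0.404 on the signals as deposited, and AT1G73340 in 2, with adjusted p up to 0.108 without replicate 1 of ckh1. The genes that did not pass in ckh1 are AT5G67390 (-0.94 ± 0.30, adjusted p = 0.0664), AT1G29670 (-0.86 ± 0.45, adjusted p = 0.315), LBD16 (-0.61 ± 0.21, adjusted p = 0.0952), AT1G29270 (-0.53), AT2G16630 (-0.52), UPB1 (-0.49) and XTH19 (0.38 ± 0.18, adjusted p = 0.252).

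In ckh2 at 25 ng/ml 16 of the 51 members were called lower than in the wild type by limma, against 2.51% of all probe sets. None was called higher, against 3.5%, and XTH19 alone was higher at an unadjusted p under 0.05, with 0.56 ± 0.18 (adjusted p = 0.0767). The median difference was -0.53 (-0.69 and -0.37 in replicates 1 and 2), with 43 of 51 below 0 and a median of -0.01 over all probe sets. The calls comprise 4 of the 8 wall and secreted protein genes, both receptor-type genes, 4 of the 6 enzyme and transporter genes, 3 of the 5 others, none of the 4 regulators and 3 of the 26 unnamed probe sets. The count was 7 without replicate 1 of ckh2, 10 without replicate 1 of the wild type and 10 on the signals as deposited, and 7 of the 16 calls held under all 9 alternatives. In the fit of the 8 arrays alone 11 held, with these 7 among them. These 7 are ZW9, AT1G69526, AT4G08780, BAT1, AT1G75900, AT1G75880 (-1.28 ± 0.21) and AT5G37540 (-1.02 ± 0.14). The call for the resistance protein gene AT5G45210 (-1.16 ± 0.23) was lost without replicate 1 of ckh2 alone (adjusted p = 0.0878). Those for AT4G16447 (-0.92), AT1G29270 (-0.92), AT3G24240 (-0.86), AT2G16630 (-0.80) and AT1G73340 (-0.74) were lost in 3 to 6 of the 9 alternatives, with adjusted p up to 0.325. All comparisons of a mutant or of TSA with the wild type at 25 ng/ml use the same 2 wild type arrays.

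The peroxidase gene AT4G08780 stood out in ckh2. Its signal was 2048 and 2446, 1397 and 1946, and 377 and 633 along the kinetin series in the wild type, 2122 and 2141, 632 and 869, and 117 and 156 in ckh1, and 495 and 651, 329 and 320, and 87.2 and 90.4 in ckh2. With 25 ng/ml the 3 genotypes did not overlap, with the wild type highest and ckh2 lowest. The difference between ckh2 and the wild type was -2.24 ± 0.23 (adjusted p = 3.34e-05). Its neighbour Prx37 read 1339 and 1549 in the wild type, against 863 and 976 in ckh1, while ckh2 had 1363 and 1397, so that ckh2 and the wild type overlapped, with a difference of -0.06 ± 0.15 (adjusted p = 0.9).

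AT1G75900, the lipase gene, read 663 and 637, 512 and 749, and 177 and 284 in the wild type, 652 and 622, 191 and 209, and 24.3 and 29.8 in ckh1, and 219 and 250, 163 and 184, and 20.7 and 38.3 in ckh2. In the wild type 25 ng/ml left it overlapping the level without kinetin, and in ckh1 it did not. The difference from the wild type at 25 ng/ml was -1.5 ± 0.29 in ckh1 (adjusted p = 0.00422) and -1.68 ± 0.29 in ckh2 (adjusted p = 0.00227). Its relative AT1G75880 read 205 and 151 in the wild type at 25 ng/ml, against 65.8 and 47.6 in ckh1, while ckh2 had 63 and 47.8. Without kinetin the same gene was at 265 and 200 in the wild type, against 846 and 540 in ckh1, while ckh2 had 106 and 95.9, so that the mutants, alike at 25 ng/ml, lay on opposite sides of the wild type there.

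**Figure D3:**
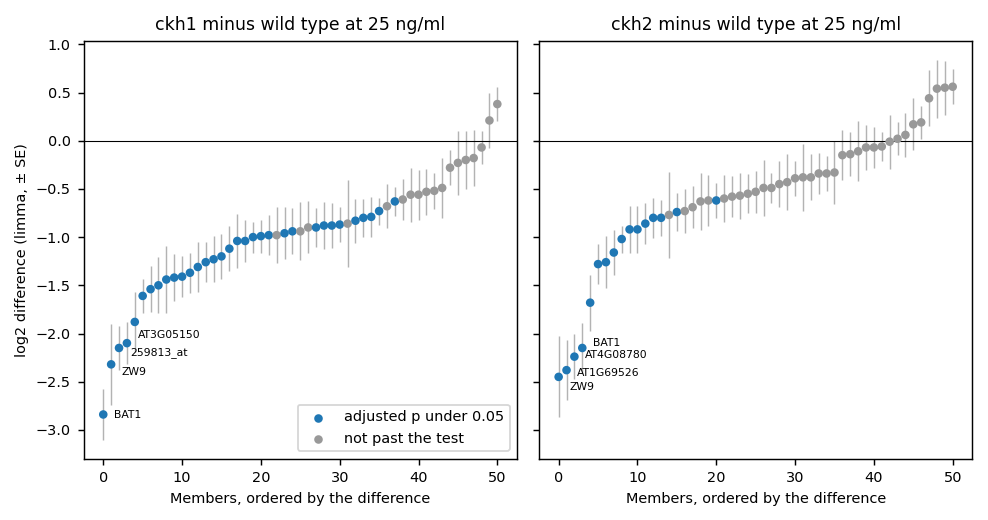
Points give the limma log2 difference of each of the 51 members between a mutant and the wild type at 25 ng/ml kinetin, ordered by size, with bars of 1 SE and blue for an adjusted p under 0.05. In ckh1 33 points are blue and in ckh2 16, all below 0, and the 4 lowest are named in each panel.

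Levels without kinetin are given for the called members as a description, since those arrays chose the members. Over all 51, ckh1 without kinetin differed from the wild type by a median of 0.04, with 14 members wholly below the wild type (20.2% of all probe sets) and 16 wholly above (25.1%). Over the same 51, ckh2 differed by a median of -0.39, with 28 wholly below (22.7%) and 4 wholly above (20.8%). Of the 33 members called lower in ckh1 at 25 ng/ml, 13 lay wholly below the wild type without kinetin, 8 lay wholly above and 12 overlapped it. In the mean 13 of the 33 were above the wild type without kinetin. The median of the 33 was -0.18 without kinetin and -1.12 at 25 ng/ml. All 16 members called lower in ckh2 at 25 ng/ml already lay wholly below the wild type without kinetin, with a median of -0.97 there and -1.09 at 25 ng/ml. Whether this shift differs between the mutants was not tested.

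The mutants also differed from each other at 25 ng/ml. There 9 members were called lower in ckh1 than in ckh2, against 3.37% of all probe sets, and 1 was called higher, against 2.13%. The median difference of ckh1 from ckh2 was -0.49 (-0.34 and -0.50 in replicates 1 and 2), against 0.01 over all probe sets. The count of lower members was 4 without replicate 2 of ckh1, 4 without replicate 2 of ckh2 and 4 on the signals as deposited. In the fit of the 8 arrays alone 5 were called lower and 1 higher. The calls for 259813_at (-2.01 ± 0.23, adjusted p = 0.000122), AT3G05150 (-1.40 ± 0.22, adjusted p = 0.00125), AT2G18360 (-1.27 ± 0.18, adjusted p = 0.000855) and 250467_at (-1.18 ± 0.17, adjusted p = 0.000987) held under all 9 alternatives. For IQD18 the difference was -1.16 ± 0.24 (adjusted p = 0.00965, from 0.00578 to 0.119 over the alternatives and lost in 3). AT1G73620, Prx37, 257679_at and 250868_at were also called lower in ckh1, and the first 3 of these each lost the call in 6 of 9 alternatives.

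AT2G18360 read 774 and 985, 766 and 828, and 271 and 439 in the wild type, 571 and 645, 239 and 243, and 124 and 109 in ckh1, and 948 and 877, 549 and 707, and 199 and 189 in ckh2. At 25 ng/ml the hydrolase transcript was lowest in ckh1, and both ckh2 arrays lay below both wild type arrays. The calmodulin-binding IQD18 read 196 and 126, 211 and 114, and 41.5 and 42.8 in the wild type, 202 and 157, 41.6 and 27.1, and 1.52 and 1.27 in ckh1, and 204 and 195, 95.4 and 132, and 7.43 and 7.09 in ckh2. The 3 genotypes overlapped without kinetin, and at 25 ng/ml ckh1 alone lay wholly below the wild type. The unnamed 250467_at read 222 and 225, 120 and 157, and 92.2 and 75.9 in the wild type, 141 and 142, 45.7 and 63.8, and 3.84 and 4.66 in ckh1, and 175 and 230, 165 and 157, and 11.7 and 13.5 in ckh2. It too was lowest in ckh1 at 25 ng/ml, and its wild type and ckh2 arrays there met at 157.

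The 1 member higher in ckh1 than in ckh2 was AT4G08780, with the values given above and a difference of 1.12 ± 0.23 (adjusted p = 0.0111). The call was lost without replicate 2 of ckh1 (adjusted p = 0.125) and without replicate 1 of ckh2 (adjusted p = 0.063), and over the 9 alternatives its adjusted p ran from 0.000647 to 0.125. The adjacent gene Prx37 had the opposite sign, at -0.57 ± 0.15 (adjusted p = 0.039).

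With TSA and no kinetin, 46 of the 51 members were lower in the wild type than with neither agent. The median difference from the group with neither agent was -1.71 (-1.94 and -1.39 in replicates 1 and 2), with a range from -4.64 to 1.11, against -0.05 over all probe sets tested. A fall of at least 2-fold in both replicates was present for 31 of 51, against 3.22% of all probe sets. Arrays lay wholly below the group without kinetin for 44 members, against 37.9% of all probe sets, and wholly above for 5, against 30.5%. For 28 of the 51 the mean level with TSA was below that at 200 ng/ml kinetin. The group without kinetin chose the members for being high there, so the difference from it carries no test. The wild type arrays at 200 ng/ml chose them for being low. The count of 28 is therefore a description, and its share over all probe sets was not computed.

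**Figure D4:**
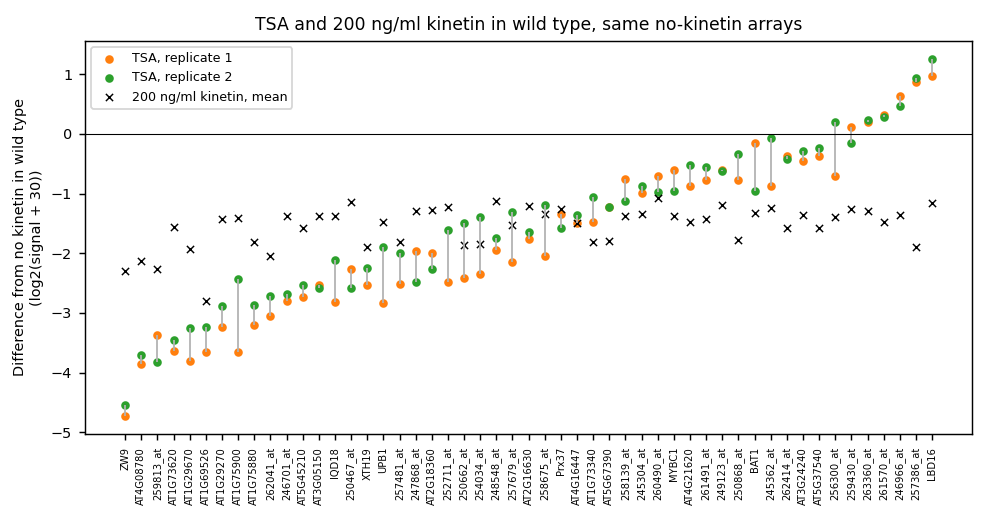
For each of the 51 members, ordered by the mean TSA difference, circles give the difference of log2(signal + 30) between TSA and no kinetin in the wild type in replicates 1 (orange) and 2 (green), and crosses the mean difference at 200 ng/ml kinetin. ZW9 is lowest at -4.64, 28 members lie below their cross in the mean, and the 5 at the right, up to LBD16 at 1.11, lie above 0 in both replicates. The arrays without kinetin and at 200 ng/ml chose the members.

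Set against 25 ng/ml kinetin, whose arrays took no part in the choice, TSA was lower for 31 of the 51 members by limma, against 14.3% of all probe sets, and higher for 3, against 12.5%. The 2 groups differ in both agents, and most members had already dropped somewhat at 25 ng/ml. The median difference was -1.23 (-1.27 and -1.10 in replicates 1 and 2), with 42 of 51 below 0, against -0.04 over all probe sets. The count called lower ran from 26 to 31 over the fits that leave out 1 array, and 29 of the 34 calls held under all 9 alternatives. In the fit of the 8 arrays alone 28 were lower and 3 higher. All 8 wall and secreted protein genes were called lower, 2 of 4 regulators, 1 of 2 receptor-type genes, 3 of 6 enzyme and transporter genes, 4 of the 5 others and 13 of the 26 unnamed probe sets.

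ZW9 dropped the most, to 48.8 and 48.2, far below its wild type arrays in the kinetin series given above, which reached down to 215. Its difference from 25 ng/ml was -3.69 ± 0.42 (adjusted p = 1.76e-05). AT4G08780 stood at 114 and 160 with TSA, below both wild type arrays at 200 ng/ml, with -3.34 ± 0.23 (adjusted p = 2.31e-07), while Prx37 next to it stood at 625 and 559, overlapping its level at 200 ng/ml of 595 and 785, with -1.24 ± 0.15 (adjusted p = 3.66e-05). Both peroxidase genes were thus lower. AT1G75900 was at 25 and 93.9, with -2.98 ± 0.29 (adjusted p = 4.12e-06), and AT1G75880 at 2.06 and 1.61, with -2.69 ± 0.21 (adjusted p = 6.39e-07). The differences were -2.97 ± 0.28 for AT1G73620 (adjusted p = 2.94e-06) and -2.92 ± 0.45 for AT1G29670 (adjusted p = 0.00023), so that the 3 lipase genes and the thaumatin-family gene were all below their levels at 200 ng/ml. The unnamed 259813_at, at 32.7 and 34, was lower by a difference of -2.71 ± 0.23 (adjusted p = 1.24e-06).

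Other wall and regulatory genes were lower as well. XTH19 went from 358 and 337 at 25 ng/ml to 75.6 and 86.8 with TSA, a difference of -1.77 ± 0.18 (adjusted p = 5.05e-06). UPB1, the root bHLH factor, went from 137 and 70.4 to 1.3 and 3.44, with -2.0 ± 0.31 (adjusted p = 0.000243), and IQD18 to 2.04 and 6.35, with -2.45 ± 0.24 (adjusted p = 3.6e-06). AT3G05150 stood at 3.78 and 5.92 (-2.41 ± 0.22, adjusted p = 1.98e-06) and 250467_at at 22.6 and 12.7 (-1.82 ± 0.17, adjusted p = 3.27e-06). These dim values lie near the bottom of the scale, where the added 30 holds the log2 difference down. AT1G69526 was at 38.9 and 25.8 and AT2G18360 at 171 and 180, both below their levels at 25 ng/ml without overlap. The call for AT5G67390 (-0.91 ± 0.30, adjusted p = 0.0335) was lost in 5 of 9 alternatives, with adjusted p up to 0.218 without replicate 1 of the wild type at 25 ng/ml. That for 257679_at (-0.83) was lost in 4, with adjusted p up to 0.485 without the same array.

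LBD16 went the other way. Its signal was 733 and 789, 585 and 649, and 328 and 318 along the kinetin series in the wild type, 882 and 817, 492 and 315, and 118 and 106 in ckh1, and 577 and 790, 651 and 529, and 231 and 162 in ckh2. With TSA it read 1462 and 1933, above every other array of the series. The difference from 25 ng/ml was 1.40 ± 0.21 (adjusted p = 0.000168, from 0.000154 to 0.0099 over the 9 alternatives). The unnamed 257386_at and 246966_at rose too. The first read 139 and 139, 59.4 and 116, and 22 and 10.2 in the wild type, 57.6 and 54.3, 30.7 and 4.96, and 3.35 and 1.03 in ckh1, and 42.8 and 64.6, 54.7 and 35.1, and 1.62 and 3.46 in ckh2, and with TSA 279 and 295, a difference of 1.47 ± 0.26 (adjusted p = 0.000822). The second read 152 and 218, 98.1 and 85, and 53.6 and 51.6 in the wild type, 161 and 151, 91.7 and 80, and 42.2 and 32.8 in ckh1, and 149 and 193, 85.6 and 101, and 42.6 and 40.7 in ckh2, and with TSA 253 and 311, a difference of 1.36 ± 0.17 (adjusted p = 4.82e-05). For all 3 the TSA arrays lay above every array of the kinetin series in all genotypes.

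Several members called lower at 25 ng/ml in both mutants, or in ckh1 in the case of MYBC1 and AT4G21620, did not pass the test for TSA against 25 ng/ml in the wild type. BAT1 differed by -0.53 ± 0.26 (adjusted p = 0.155), the receptor-like kinase gene AT3G24240 by -0.06 ± 0.21 (adjusted p = 0.865), AT5G37540 by 0.29 ± 0.14 (adjusted p = 0.15), AT1G73340 by -0.33 ± 0.20 (adjusted p = 0.232), MYBC1 by -0.58 ± 0.35 (adjusted p = 0.242) and AT4G21620 by -0.28 ± 0.18 (adjusted p = 0.287). AT3G24240 read 1668 and 1625 at 25 ng/ml and 1463 and 1702 with TSA, so that these groups overlapped, while ckh1 had 622 and 614 at 25 ng/ml, and ckh2 927 and 860. AT5G37540 read 167 and 173 at 25 ng/ml and 226 and 204 with TSA, while ckh1 had 93.8 and 86.5, and ckh2 71.7 and 65.7. For the remaining named genes TSA was lower, with -2.37 ± 0.24 for AT1G29270, -1.95 ± 0.23 for AT5G45210, -1.33 ± 0.24 for AT4G16447 and -1.23 ± 0.19 for AT2G16630 (adjusted p from 5.95e-06 to 0.00074).

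The green tissue marker RCA, Rubisco activase, the 1 of 4 such loci matched by name, moved with the same groups. In the wild type it read 298 and 434 with no kinetin, 439 and 479 at 25 ng/ml, 826 and 547 at 200 ng/ml and 877 and 744 with TSA. Along the kinetin series it read 326 and 354, 696 and 887, and 949 and 808 in ckh1, and 556 and 646, 983 and 723, and 1147 and 1224 in ckh2. At 25 ng/ml it was higher in ckh1 by 0.74 (adjusted p = 0.0395) and in ckh2 by 0.84 (adjusted p = 0.0243), and with TSA by 0.78 (adjusted p = 0.0119). The part of tissue makeup in the members' differences was not tested.

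Few genes of the lists chosen for this tissue are named on the array. Of 13 auxin response loci 6 were tested, with LBD16 the only member among the 51. In ckh1 at 25 ng/ml 2 of the 6, GH3.1 (-1.34, adjusted p = 0.0221) and LBD29 (-1.54, adjusted p = 0.0154), were lower than in the wild type, and IAA29 was higher in ckh2 (0.95, adjusted p = 0.0223). Without kinetin LBD29 was already lower in ckh1, at a mean of 118 against 798 in the wild type (-2.49). Within ckh1 it did not fall with kinetin, at 154 and 172 with 25 and 200 ng/ml. GH3.1 differed by 0.13 without kinetin. TSA was higher than 25 ng/ml for 3 of the 6, LBD16, IAA29 (1.73, adjusted p = 7.21e-05) and GH3.3 (0.62, adjusted p = 0.0493), and lower for WES1 (-0.59, adjusted p = 0.029). None of the other 5 is a member. IAA29 was dim along the kinetin series, at 27.8, 39.7 and 45 in the wild type and at most 38.6 in ckh1, below the filter's level. It entered the tests only through ckh2 (104 at 25 ng/ml) or TSA (200), the groups in which it was called higher. Its calls are therefore not independent of the filter.

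Of 6 lateral root and callus factors 4 were tested. PUCHI, an AP2-type factor of lateral root formation, was lower in ckh1 at 25 ng/ml (-1.06, adjusted p = 0.00654), as was LBD29, and neither passed in ckh2. Without kinetin the mean difference of ckh1 from the wild type was -0.48 for PUCHI and -2.49 for LBD29. BABY BOOM (BBM), an AP2-type factor of embryo and callus growth, went from 207 without kinetin to 58.8 at 200 ng/ml in the wild type and to 1.45 with TSA, -2.60 below 25 ng/ml (adjusted p = 4.25e-06). It is no member. Of 18 cytokinin loci only ARR15 and UGT76C2 were tested. ARR15, a response regulator induced by cytokinin, rose from 25.2 to 50.4 and 167 along the kinetin series in the wild type, from 24.2 to 50.6 and 139 in ckh1 and from 28.5 to 56.8 and 202 in ckh2, and did not differ past the test between a mutant and the wild type at 25 ng/ml (-0.02 and 0.11, adjusted p = 0.986 and 0.908). UGT76C2, a cytokinin glucosyltransferase gene, was lower in ckh1 at 25 ng/ml (-0.76, adjusted p = 0.0372), and TSA was lower than 25 ng/ml for ARR15 (-0.98, adjusted p = 0.0253) and UGT76C2 (-0.62, adjusted p = 0.0417).

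By words in gene names, 8 peroxidase, 6 xyloglucan endotransglucosylase, 11 expansin and 5 cytochrome P450 genes were tested, with Prx37 and XTH19 the members among them. The other peroxidase and P450 members carry no such word in their names. In ckh1 at 25 ng/ml 2 of the 8 peroxidase genes were lower and 1 higher, with a median of -0.01, and with TSA 2 were lower and 3 higher, with a median of 0.42. Among the 6 xyloglucan endotransglucosylase genes 1 was lower in ckh1, 1 was lower and 1 higher in ckh2, and with TSA 1 was lower and 1 higher. The expansin genes hold no member, with 2 lower and 1 higher in ckh1 and 3 lower and 1 higher with TSA, and of the P450 genes 1 was lower and 1 higher in ckh1 and 3 were higher with TSA.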

How the data were processed

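Hybridisation was read on 20 arrays in 10 groups, taken from the sample titles. The deposited values are linear MAS5 signal intensities, per the submitters' processing notes, with the version and scaling target not given in the sources used here and no detection calls used. The 51 members were found on the deposited signals; the members, lists and named-gene rule were chosen with earlier results of these data known.

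The deposited arrays have a 2% trimmed mean of 310.9 where the replicate number is 1 and of 236.9 where it is 2, which differ 1.31-fold. Every array was therefore rescaled to 273.9 before the filter, the differences and the main fit. The rule that chose the members used the deposited signals. Control probe sets (64) and 7310 probe sets whose group means all lay at or below the 40th percentile (6.608 on the log2 scale) were left out, and 15436 tested. A fit of 10 group means to log2(signal + 30) used limma 3.58.1 in R 4.3.3 (lmFit, eBayes with trend, 10 residual degrees of freedom). P-values were adjusted by Benjamini-Hochberg and called below 0.05. Other values were computed in Python 3.11.15. The procedure was tested on simulated data. Deviations of samples with the same replicate number correlated weakly in the median (r 0.16, from -0.12 to 0.63, over 0.1 in 26 of 45 pairs of groups). Since not every pair passed 0.1 and no label says that a number marks a shared source, the tests did not take the numbers as pairs and the main fit has no replicate block. The rule and the described differences did set arrays of the same replicate number against each other.

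Genes come from the array's name table by gene ID, updated through RefSeq's TAIR10.1 table. No promoter or protein sequence was used here, so the planned promoter motifs were not searched, and word lists were matched to gene names and synonyms alone.

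Values in every array are given for the 6 members with the largest mean fall, the 3 lowest and 3 highest by TSA, and up to 5 called in each direction of each test. All 25 members with 1 gene are named. Other genes, and the array values of further members, were chosen after their values were seen. Alternatives were the signals as deposited, quantile normalization, a pseudocount of 3, no filter, the replicate block, and each compared array left out in turn. A fit of the 8 arrays with 25 ng/ml or TSA alone (4 residual degrees of freedom) was added after the data were seen and is not counted among these 9 per comparison. A group left with 1 array is assumed to vary like the others.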

Additional observations from a re-analysis of the deposited data

How the results depend on the processing

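No result reversed its direction under any alternative run. On the signals as deposited, which carry the scaling difference between replicate numbers into the spread, 19 members were called lower in ckh1 than in the wild type at 25 ng/ml (33 after rescaling), 10 in ckh2 (16) and 4 in ckh1 against ckh2 (9). Leaving out 1 array gave 19 to 25, 7 to 15 and 4 to 6 lower, and 0, 0 to 1 and 0 to 1 higher; fewer arrays enter these fits. For TSA against 25 ng/ml all alternatives stayed within 1.5 times, with 26 to 31 lower and 3 to 4 higher without 1 array. With the replicate block 38, 17, 12 and 31 members were lower and 0, 1, 1 and 4 higher in the 4 comparisons. The main fit did not take the numbers to pair the arrays. Over all probe sets, counts called lower and higher went, as deposited, from 748 to 264 and 429 to 102 for ckh1, from 388 to 128 and 540 to 183 for ckh2, from 520 to 89 and 329 to 51 for ckh1 against ckh2, and from 2205 to 645 and 1930 to 829 for TSA. With the block 913, 541, 674 and 2663 of all probe sets were lower and 658, 708, 484 and 2310 higher in the 4 comparisons. The fit of only the 8 arrays at 25 ng/ml or with TSA was chosen after seeing the data. Members called lower in it were 30, 11, 5 and 28 and higher 0, 0, 1 and 3. Over all probe sets 497 and 255, 224 and 310, 220 and 147, and 1583 and 1511 were lower and higher in the 4 comparisons.

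The median difference of 25 ng/ml from no kinetin was -0.44 with quantile normalization and -0.50 with a pseudocount of 3 in the wild type (-0.44 to -0.42 in single replicates), -1.59 with a pseudocount of 3 in ckh1 (-1.43 to -1.33), and -0.60 and -0.66 in ckh2 (-0.55 to -0.54). For TSA against no kinetin single replicates gave -1.94 to -1.39.

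The rule itself would take 109 probe sets with a pseudocount of 3 (all 51 among them), 17 with 100, 4 at a threshold of -1.5, and 76 to 297 with 1 replicate. Dim signals limit the size of large falls.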
